A study of Mus musculus with 32 samples.

Results

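The genotype by stage contrast asks, for each gene, whether the difference between Trp53 MZ-KO and WT mouse embryos at the late 2-cell stage was larger or smaller than the same difference at the early 2-cell stage. It was taken as (late MZ-KO minus late WT) minus (early MZ-KO minus early WT), on the log2(FPKM + 1) scale, where FPKM is reads relative to gene length and library depth and the pseudocount of 1 keeps zeros on the scale. The genes are those at FPKM 1 or more in at least 6 of the 26 embryos, which gave 11558 of the 54532 genes in the table. Just inside this threshold, 566 genes reached FPKM 1 in exactly 6 embryos, with a median over genes of the mean FPKM of 0.648. Just outside it, 598 genes reached it in 5 embryos, with a median of 0.559. The 26 embryos are part of a series of 32 single-egg and single-embryo libraries.

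The 4 groups were 8 WT early embryos, 6 early embryos labelled MZ-KO, 6 WT late embryos and 6 late embryos labelled MZ-KO, all on a mixed genetic background. WT embryos came from Trp53 flox/flox controls, which carry the floxed allele undeleted. MZ-KO embryos had a knockout mother and a knockout father, so both the maternal and the zygotic copies were targeted. The knockout allele was made by crossing floxed mice to Ddx4::Cre, which is driven by a germ cell promoter, and lacks exons 2 to 10. Collection was at 28 to 32 hours (early) or 48 hours (late) after hCG, the hormone that triggers ovulation. Hormone treatment, the same in all 4 groups, was at 5 U with 48 hours between the hormones. Embryos were cultured in KSOM medium. Each library was made from 1 embryo with the SMRT-seq v4 kit, which primes cDNA on poly(A) tails and does not mark the strand, with 15 cycles of PCR, and was cut for sequencing with Tn5. The number of females behind each group is not in the labels, so p-values measure the spread between individual embryos. Each library holds a whole embryo and its values are relative to its own depth, so fewer cells of a type and less RNA per cell cannot be told apart.

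The mouse 2-cell stage is when the embryo switches from RNA stored in the egg to RNA made from its own genome. Maternal RNA is degraded while zygotic transcription starts at a low level in the zygote and then in a larger wave, zygotic genome activation, during the 2-cell stage. The transcription factor Dux, listed as Duxf3, is made briefly in the early 2-cell embryo and switches on Zscan4, Tdpoz, Usp17l and other 2-cell genes. Trp53 encodes p53, which binds DNA after damage or other stress and activates genes such as Cdkn1a, an inhibitor of cyclin-dependent kinases, and Mdm2, the ubiquitin ligase that degrades p53. A contrast across these stages therefore spans the loss of maternal RNA and the gain of zygotic RNA in both genotypes.

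Libraries were scaled by 7210000 to 27600000 reads each. Stage separated the embryos along the first principal component, which held 76.4% of the variance. WT early library 3 lay at -63 on it, while the other WT early embryos lay between -98.5 and -87.6. Late embryos labelled MZ-KO lay between 84.6 and 112, and WT late embryos between 105 and 120. Oocyte markers summed to between 572 and 1190 FPKM in early embryos and to between 42.1 and 142 FPKM in late ones. None of the 14 cumulus and granulosa markers was high enough to be tested, and their sum was at most 1.28 FPKM in any embryo. Of 8 sperm markers, 3 were tested and none was called. The protamine gene Prm1 had an FPKM of 8.82 to 27.6 in WT late and 6.59 to 13.5 in MZ-KO late embryos, a contrast of -0.53 that did not pass the test (adjusted p = 0.127, limma), though under median-ratio scaling it did (-0.81, adjusted p = 0.0255). Of 10 blood and immune markers, 3 were tested and 2, Hba-a1 and Hba-a2, were higher in the contrast, as described below.

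Trp53 (chromosome 11, 69580359 to 69591873, plus strand, mm10) was the first gene examined, as a check of the labels. Its FPKM was 2.6 to 9.29 (median 6.29) in WT early embryos and 0.311 to 1.1 (median 0.856) in early embryos labelled MZ-KO, with no overlap. At the late stage it was 0.557 to 7.09 (median 2.95) in WT and 1.48 to 5.39 (median 2.62) in embryos labelled MZ-KO, and these ranges overlapped. The early difference was -1.92 (adjusted p = 0.0011, limma) and the late difference -0.03 (adjusted p = 0.959). The contrast was therefore 1.88 with a standard error of 0.44 and a 95% interval of 0.98 to 2.79 (adjusted p = 0.00348, limma). The FPKM is scaled to the whole gene span and may take in introns and retained exons, so it does not separate deleted from retained sequence. Because the level in late embryos does not set the labelled MZ-KO group apart from WT, the late groups are called by their labels and every direction given for them rests on those labels. Of 16 tested neighbours of Trp53 on chromosome 11, 1 was higher (Tnfsf13, 1.42) and 1 lower (Polr2a, -0.93) in the contrast. The share called was 12.5%, where it was 20.4% of all genes tested.

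The genotype difference depended on the stage in 2363 of the 11558 genes, or 20.4%, at a Benjamini-Hochberg adjusted p below 0.05 (limma). It was more positive at the late stage in 1392 genes, 12% of those tested, which are called higher below, and more negative in 971, 8.4%, which are called lower. The difference between stages was 1 or more on the log2(FPKM + 1) scale in 1189 of the called genes. Within single stages, 4095 genes (35.4%) differed between the genotypes late, 2451 higher and 1644 lower in MZ-KO. At the early stage 238 genes (2.06%) differed, 188 higher (1.63%) and 50 lower (0.433%). The split by direction moved with the scaling. Under median-ratio scaling, which divides each library by its median ratio to a common reference, 859 genes were higher and 1676 lower, and the median of all genes moved from 0.05 to -0.1. With a trend on transcript length taken out, 1167 were higher and 1224 lower, with a median of -0.01. The late comparison had 1454 higher and 2655 lower under median-ratio scaling, and 1936 higher and 2101 lower with the length trend taken out. Without WT early library 3 and WT late library 3, which held 5 and 6 of the 28 single-embryo values far from the rest of their group, 1407 genes were higher and 1142 lower. Those 2 embryos were singled out after seeing the data. The early count was the least stable: it was 130 without MZ-KO early library 2, 106 without library 3, 148 without library 5 and 119 without library 6.

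The filter bears on the directions of some genes. A gene that reached FPKM 1 in at least 6 embryos of 1 group, and in fewer than 6 embryos of the other groups together, was tested only because it was high in that group. Of 395 such genes of the late MZ-KO group, 228 were called higher and 0 lower, and of 376 of the WT late group, 0 were higher and 151 lower. Of 347 such genes of the WT early group, 31 were higher, and of 64 of the MZ-KO early group, 13 were lower. Among the genes named below, Nt5c, Psmb10, Chrna10, Cox8c, Dnajb3, Fkbp11, Rfc4, Wdr12, Hand1, Zfp42 and B020031M17Rik passed only through the late MZ-KO group. Atp5d, Eif4ebp1 and Rpl3l also passed only through that group. Calhm3, Defb25, Polr2a, Tdpoz3 and Ube3a passed only through the WT late group. Erich5 passed only through the MZ-KO early group, and Duxf3 and Krt18 only through the WT early group. Where such a gene was called, its direction and adjusted p are given as a description, since the filter chose it for a high level in 1 group.

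**Figure D1:**
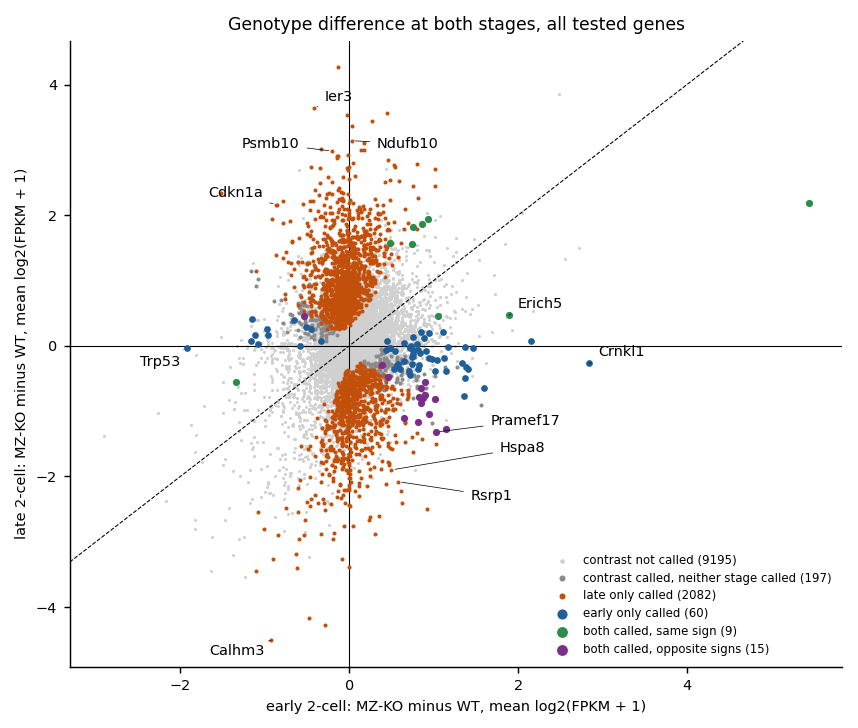
Each point is 1 of the 11558 tested genes; the x axis is the MZ-KO minus WT difference in mean log2(FPKM + 1) in early embryos, the y axis the same difference in late embryos, and colour gives the stages at which a gene called in the contrast was also called. On the dashed line both differences are equal; the 2082 genes called at the late stage only lie along the vertical axis, and Trp53 and Crnkl1 lie near the horizontal one.

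In 2082 of the 2363 called genes, or 88.1%, the late difference was called and the early one was not, with 1279 higher and 803 lower. Under median-ratio scaling this class had 755 higher and 1480 lower genes, and with the length trend taken out 1051 and 1049. In 60 genes only the early difference was called, and 48 of these 60 were lower in the contrast. Both differences were called with opposite signs in 15 genes and with the same sign in 9. Neither single-stage difference was called in the remaining 197. The small classes rested on single early embryos. Genes with opposite signs numbered 4 without MZ-KO early library 2 or 6, 6 without library 3 and 9 without library 5, and 7, 9 and 7 without WT early library 4, 5 and 7. Genes with the same sign numbered 5 without MZ-KO early library 2, 3 or 6, 4 without library 5 and 5 without WT early library 4. Genes called early only numbered 33 without MZ-KO early library 3 and 91 without WT early library 2. The classes also moved when embryos were given weights per group. Then 1885 genes were called late only, 126 early only, 34 with opposite signs and 16 with the same sign. The plot of late against early differences shows these classes. A count of genes whose late difference was called and whose early one was not does not show that the early difference was zero.

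Seen along development, higher genes were of several kinds. Of the 1392 higher genes, 493 rose from early to late in both genotypes, where 47.4% of all genes tested rose in WT and 48% in MZ-KO. A further 287 rose in MZ-KO with no call in WT, and 74 fell in WT and rose in MZ-KO. Another 285 fell in both and 252 fell in WT with no call in MZ-KO. Among the 971 lower genes, 582 rose in both genotypes and 212 rose in WT with no call in MZ-KO. In 83 lower genes the level fell in MZ-KO with no call in WT, in 64 it fell in both, and in 27 it rose in WT and fell in MZ-KO. The early to late change itself was called in 9628 genes (83.3%) in WT and in 9274 (80.2%) in MZ-KO, comparisons that share their embryos with the contrast. Of all genes tested, 47.4% rose in WT and 48% in MZ-KO. The share of all genes in each joint class above was not counted. Since the contrast equals the MZ-KO change minus the WT change, it partly sets these classes, which are given as a description.

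Ier3 (chromosome 17, 35821684 to 35822923, plus strand), an immediate early gene induced by stress and growth signals, had the largest contrast among the named genes. Its FPKM was 0 to 17.3 (median 1.67) in WT early embryos and 0 to 3.97 (median 0.988) in MZ-KO early embryos. In WT late embryos it was 0 to 7.41 (median 0), with 4 of the 6 embryos listed at 0, and in MZ-KO late embryos 13.3 to 25.8 (median 16.9). All 6 late MZ-KO embryos lay above all 6 late WT embryos, while the early groups overlapped. The contrast was 4.06 (SE 0.82, adjusted p = 0.00106, limma). Across all tested genes, the late groups did not overlap in 1362 genes (11.8%) and the early groups in 147 (1.27%). Among the 112 genes picked for description by rule, which were chosen by the size of their contrast or by their adjusted p within a list, these numbers were 57 and 8.

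Psmb10 (chromosome 8, 105935735 to 105938444, minus strand) encodes a catalytic subunit of the immunoproteasome, the form of the proteasome best known from antigen processing. FPKM was at most 0.689 in WT early and at most 0.096 in MZ-KO early embryos. In late embryos it was 0.937 to 4.71 (median 3.05) in WT and 18.8 to 33.6 (median 28.4) in MZ-KO, without overlap. Psmb10 had a contrast of 3.18 (SE 0.28, adjusted p = 1.2e-07, limma), given as a description because it passed the filter only through the late MZ-KO group. Its span overlaps the gene Gm16156, whose reads may not be told apart from its own. Ndufb10 (chromosome 17, 24722060 to 24724478, minus strand), a subunit of respiratory complex I, followed the same course. It had at most 1.47 FPKM in every early embryo, 0.448 to 3.97 (median 2.82) in WT late and 19.3 to 32.4 (median 26.8) in MZ-KO late embryos. Its contrast was 3.11 (SE 0.34, adjusted p = 1.1e-06, limma). In both genes the genotypes overlapped early and were apart late.

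Phlda2 (chromosome 7, 143501545 to 143503150, minus strand) is an imprinted gene known for limiting placental growth. It was at 0.691 to 10.7 FPKM in WT early, 4.51 to 7.68 in MZ-KO early and 1.57 to 20.7 (median 12.4) in WT late embryos. MZ-KO late embryos held 38.4 to 283 FPKM (median 115), all above the WT late range. The contrast was 3.11 (SE 0.71, adjusted p = 0.00296, limma). The other late-only genes with the largest positive contrasts were Nt5c (3.33), which encodes a nucleotidase, Rnf138rt1 (3.08) and Chrna10 (3.03), a nicotinic receptor subunit. Nt5c overlaps Armc7 and Chrna10 overlaps Art1 in the annotation. Late groups overlapped for Rnf138rt1, at 0 to 17.4 FPKM in WT and 8.22 to 65.5 FPKM in MZ-KO, and for neither of the others.

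Cdkn1a (chromosome 17, 29090976 to 29100727, plus strand) was the p53 target with the largest contrast. Early embryos held 1.52 to 14 FPKM (median 2.79) in WT and 0.666 to 3.39 (median 1.37) in MZ-KO, with overlap and an early difference of -0.86 that did not pass the test (adjusted p = 0.265, limma). Late embryos held 1.22 to 11.5 (median 4.75) in WT and 13.8 to 36.8 (median 26.5) in MZ-KO, with no overlap. The late difference was 2.16 (adjusted p = 1.2e-04, limma) and the contrast 3.02 (SE 0.53, adjusted p = 3.0e-04). WT early library 3 held the highest early value, 14 FPKM, where the other WT early embryos held at most 4.54. The span overlaps AC167363.2.

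**Figure D2:**
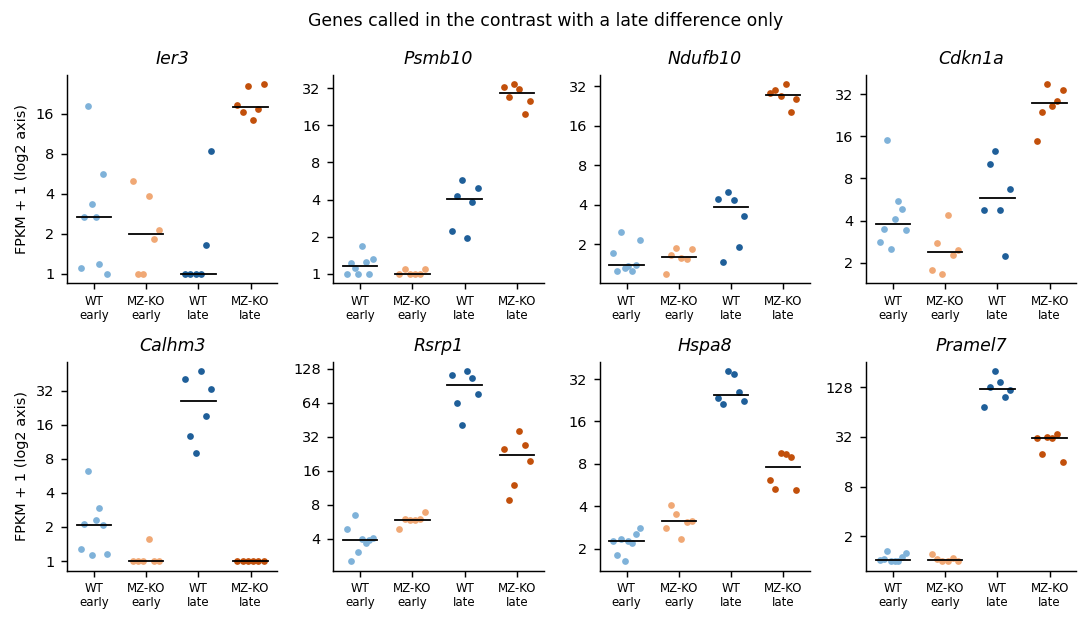
Each point is the FPKM + 1 of 1 embryo on a log2 axis, in 8 genes whose late difference alone was called, and each bar is the median of its group. Ier3, Psmb10, Ndufb10 and Cdkn1a are higher in all 6 late MZ-KO embryos than in any late WT embryo, and Calhm3, Rsrp1, Hspa8 and Pramel7 lower in all 6.

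The windows before the transcription start of 7 genes that the contrast separates are shown here so that the stretches of DNA where these genes start can be read beside their values. They are RefSeq windows of build GRCm38.p6, up to 250 bases before the RefSeq start, written 5′ to 3′ on the gene's strand and ended before the first annotated exon. The start taken was the listed one nearest the annotated 5′ end of the gene. Capitals mark matches on either strand to any of 8 motifs. The GC box, which Sp and Klf family transcription factors bind in many promoters, was searched as GGGCGG. The box bound by the trimeric factor NF-Y was searched as CCAAT. For the ETS family, common at promoters of housekeeping genes, the letters were CCGGAAG. The E-box, where Myc and Max and the USF factors bind, was searched as CACGTG. The box bound by the TATA-binding protein was searched as TATAAA. The core shared by Obox and Otx homeobox factors, some of which act in the early embryo, was searched as GGATTA. For the E2F factors, which act on cell cycle genes, the letters were TTTCCCGC. For p53 a pair of CATG cores with 6 bases between them was searched, which was added after the Cdkn1a window was read. The first 5 genes were higher and the last 2, Rsrp1 and Arl4d, were lower in the contrast.
Ier3, chr17:35821463-35821683, plus strand: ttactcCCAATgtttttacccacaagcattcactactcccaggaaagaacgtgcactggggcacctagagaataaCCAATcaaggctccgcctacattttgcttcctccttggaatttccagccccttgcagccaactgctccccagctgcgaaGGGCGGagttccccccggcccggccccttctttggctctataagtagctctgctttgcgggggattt
Psmb10, chr8:105938445-105938642, minus strand: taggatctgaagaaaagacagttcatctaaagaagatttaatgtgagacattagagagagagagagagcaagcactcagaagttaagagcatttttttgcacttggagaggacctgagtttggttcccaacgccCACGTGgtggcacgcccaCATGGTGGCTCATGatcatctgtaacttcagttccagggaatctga
Ndufb10, chr17:24724479-24724673, minus strand: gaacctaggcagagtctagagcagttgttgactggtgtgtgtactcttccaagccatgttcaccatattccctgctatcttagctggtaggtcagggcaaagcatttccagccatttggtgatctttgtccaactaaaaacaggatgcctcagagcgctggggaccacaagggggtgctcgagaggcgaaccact
Mrps14, chr1:160194965-160195214, plus strand: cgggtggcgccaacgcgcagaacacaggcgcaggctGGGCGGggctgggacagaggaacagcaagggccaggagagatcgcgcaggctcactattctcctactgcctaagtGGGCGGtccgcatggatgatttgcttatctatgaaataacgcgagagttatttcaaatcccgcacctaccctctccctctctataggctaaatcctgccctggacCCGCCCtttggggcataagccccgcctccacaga
Cdkn1a, chr17:29090729-29090975, plus strand: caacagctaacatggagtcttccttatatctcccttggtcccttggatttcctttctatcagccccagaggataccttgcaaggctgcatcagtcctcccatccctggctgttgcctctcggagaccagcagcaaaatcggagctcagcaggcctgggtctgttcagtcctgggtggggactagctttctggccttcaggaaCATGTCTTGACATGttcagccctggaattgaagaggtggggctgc
Rsrp1, chr4:134923375-134923591, plus strand: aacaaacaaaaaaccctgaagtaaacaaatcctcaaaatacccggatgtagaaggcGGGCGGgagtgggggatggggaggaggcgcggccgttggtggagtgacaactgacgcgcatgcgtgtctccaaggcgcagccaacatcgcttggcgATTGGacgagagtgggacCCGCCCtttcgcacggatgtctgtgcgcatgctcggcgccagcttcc
Arl4d, chr11:101665291-101665540, plus strand: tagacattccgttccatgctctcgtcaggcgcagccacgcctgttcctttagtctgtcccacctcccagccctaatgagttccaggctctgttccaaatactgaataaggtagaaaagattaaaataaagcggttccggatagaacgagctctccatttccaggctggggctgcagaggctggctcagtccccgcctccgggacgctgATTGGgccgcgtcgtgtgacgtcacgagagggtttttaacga
The Cdkn1a window, read before this motif was added, holds the CATG pair searched for p53, at 48 bases before the RefSeq start. The Psmb10 window holds such a pair 98 bases before its start. The 6 bases between the cores were left free in the search. Ndufb10 holds none of the 8 motifs in its 195 bases. A GC box stood in 56.5% of the windows of 895 higher genes, in 56.8% of those of 528 lower genes and in 55.2% of the 6261 tested genes with a window. A CCAAT box stood in 37.4% of the higher, 44.5% of the lower and 38.9% of all tested genes with a window. The CATG pair searched for p53 stood in 0.4% of the windows of higher genes, in none of the 528 windows of lower genes and in 0.4% of all. These are matches of letters in 250 bases, with no test, and draw on the 6261 of 11558 tested genes that had an entry.

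Among the genes that were lower in the contrast, Calhm3 had the largest difference of the named ones. It encodes a member of the calcium homeostasis modulator family of channels (chromosome 19, 47151609 to 47157764, minus strand). FPKM was 0.141 to 5.27 in WT early and at most 0.581 in MZ-KO early embryos. In late embryos Calhm3 was at 8.06 to 46.4 FPKM (median 25.1) in WT and was listed at 0 in all 6 labelled MZ-KO, so the groups were fully apart. The contrast was -3.58 (SE 0.5, adjusted p = 2.4e-05, limma). Defb25, a beta-defensin gene, was similar at 6.45 to 30.4 FPKM in WT late and 0.524 to 4.66 FPKM in MZ-KO late embryos. Its contrast was -2.7 (adjusted p = 5.9e-05, limma). Calhm3 and Defb25 passed the filter only through the WT late group, so both are given as a description.

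Rsrp1, which encodes an arginine- and serine-rich protein (chromosome 4, 134923592 to 134927671, plus strand), rose from early to late in both genotypes and reached a lower level in MZ-KO. Early embryos held 1.55 to 5.46 FPKM in WT and 3.86 to 6 FPKM in MZ-KO. Late embryos held 39.6 to 121 (median 91.2) in WT and 7.88 to 35 (median 21.4) in MZ-KO, with no overlap, and the contrast was -2.66 (SE 0.4, adjusted p = 5.9e-05, limma). Hspa8 (chromosome 9, 40800984 to 40810087, plus strand), the constitutive Hsp70 chaperone, took a similar course. It moved from 0.635 to 1.8 FPKM early to 20.2 to 35.3 FPKM late in WT, and from 1.34 to 3.1 FPKM early to 4.2 to 8.61 FPKM late in MZ-KO. Its contrast was -2.4 (SE 0.26, adjusted p = 9.2e-07, limma), and the span contains the small nucleolar RNA genes Snord14c, Snord14d and Snord14e.

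Pramel7, a PRAME-family gene of the 2-cell embryo and a member of a multicopy family, had at most 0.318 FPKM in early embryos. It reached 72.9 to 198 FPKM (median 121) in WT late and 14.7 to 33.9 FPKM (median 30) in MZ-KO late embryos. The contrast was -2.16 (SE 0.27, adjusted p = 5.8e-06, limma), and the late groups did not overlap. Zswim3 (-2.55) had non-overlapping late groups as well, at 8.66 to 17.6 FPKM in WT and 0.895 to 4.52 FPKM in MZ-KO. Elobl, an elongin B-like gene with a contrast of -2.53, and Arl4d, a small GTPase gene with -2.36 (adjusted p = 0.0348, limma), had overlapping late groups. The call of Arl4d was lost in 9 of the 26 fits that left out 1 embryo.

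A smaller set of genes differed early and met at the late stage. Crnkl1 (chromosome 2, 145917479 to 145935014, minus strand) encodes a spliceosome protein and had the largest such contrast. Its FPKM was 0.659 to 3.52 (median 1.16) in WT early and 13.6 to 18.5 (median 16.1) in MZ-KO early embryos, without overlap. Late embryos held 15.3 to 31.9 (median 22.1) in WT and 14.1 to 23 (median 18.9) in MZ-KO, with overlap. The early difference was 2.84 (adjusted p = 1.3e-10, limma), the late one -0.27 (adjusted p = 0.301), and the contrast -3.12 (SE 0.27, adjusted p = 8.0e-08). The early MZ-KO embryos lay within or just below the late ranges. The span overlaps Cfap61.

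H2afx, the histone H2A variant phosphorylated at DNA breaks, had the same order of groups at lower levels. FPKM was 0 to 1.82 in WT early and 1.49 to 5.44 in MZ-KO early embryos, and 1.92 to 11.4 in WT late and 3.77 to 8.99 in MZ-KO late embryos. Its contrast was -1.59 (SE 0.41, adjusted p = 0.00772, limma), and both stages overlapped. Pcgf1, a Polycomb protein of a variant PRC1 complex, was at 48.9 to 184 FPKM in WT early and 169 to 264 FPKM in MZ-KO early embryos. By the late stage Pcgf1 was at 90.4 to 150 FPKM in WT and 71.1 to 113 FPKM in MZ-KO, a contrast of -1.39 (SE 0.31, adjusted p = 0.00256, limma). The maternal F-box gene Fbxw15 had a contrast of -1.54 (adjusted p = 0.0131, limma), with 8.45 to 41.1 FPKM in WT early and 31.2 to 82.9 FPKM in MZ-KO early embryos. In the other direction, Gcsh, of the glycine cleavage system, had 0.789 to 7.26 FPKM in WT early and 0.42 to 1.01 FPKM in MZ-KO early embryos and a contrast of 1.23. The zinc finger gene Zfp518a had a contrast of 0.8. Under median-ratio scaling the calls of Gcsh (0.93, adjusted p = 0.0773, limma) and Zfp518a (0.56, adjusted p = 0.0648) were lost.

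**Figure D3:**
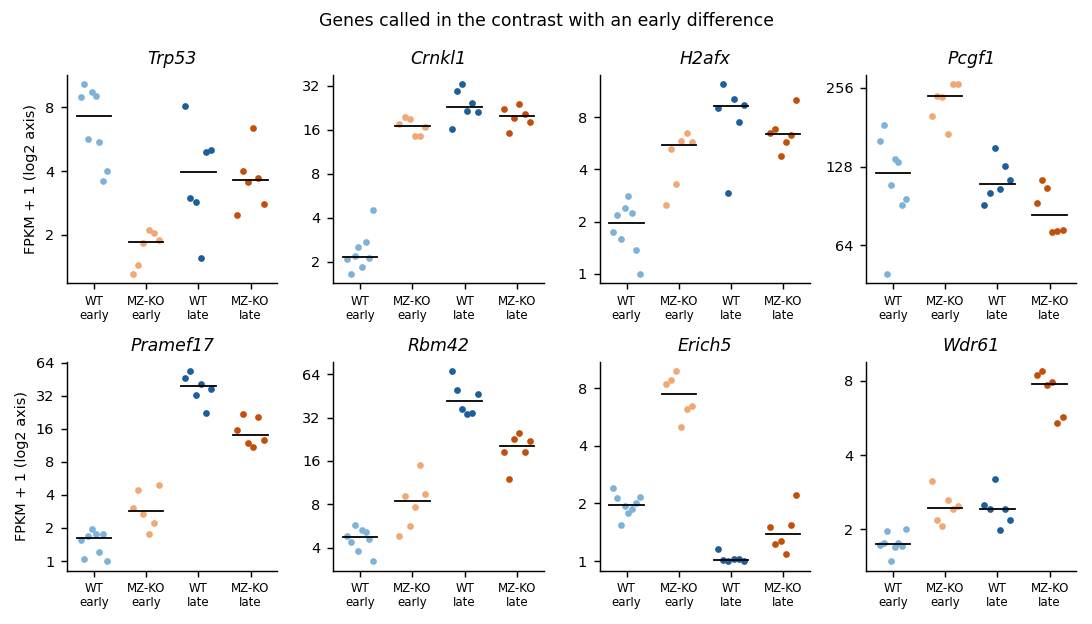
Each point is the FPKM + 1 of 1 embryo on a log2 axis, in 8 genes with a called early difference, and each bar is the median of its group. Trp53 and Crnkl1 are apart early and overlap late, Pramef17 and Rbm42 are higher in MZ-KO early and lower late, and Erich5 and Wdr61 are higher in MZ-KO at both stages.

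The 15 genes with called differences of opposite sign were mostly higher early and lower late in MZ-KO, which held for 14 of them. Pramef17 (chromosome 4, 143991119 to 143994369, minus strand) is another PRAME-family gene. It was at 0 to 0.963 FPKM (median 0.624) in WT early and 0.769 to 3.93 FPKM (median 1.84) in MZ-KO early embryos. At the late stage it was at 21.2 to 52.4 FPKM (median 37.9) in WT and 9.95 to 20.9 FPKM (median 13.1) in MZ-KO. Early groups overlapped and late ones did not, with an early difference of 1.03, a late one of -1.32 and a contrast of -2.34 (SE 0.35, adjusted p = 4.9e-05, limma). Rbm42, an RNA-binding protein gene, had 2.23 to 4.74 FPKM in WT early and 3.8 to 14 FPKM in MZ-KO early embryos, then 32.7 to 66.1 FPKM in WT late and 11 to 24.1 FPKM in MZ-KO late embryos. Its late groups were apart and its early groups overlapped (contrast -1.99, adjusted p = 1.1e-04, limma). In Sdf2, of the endoplasmic reticulum, the early groups were the ones apart, at 3.58 to 5.63 FPKM in WT and 6.49 to 11.5 FPKM in MZ-KO. Late embryos held 7.7 to 13.5 FPKM of Sdf2 in WT and 4 to 8.17 FPKM in MZ-KO, and the contrast was -1.72 (adjusted p = 1.6e-05, limma). In the annotation Rbm42 overlaps Gm21982 and Sdf2 overlaps Supt6.

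In 9 genes both differences had the same sign. Wdr61, of the PAF1 and SKI complexes, was higher in MZ-KO at both stages, by 0.48 early and 1.57 late. FPKM was 0.487 to 1 in WT early, 1.06 to 2.13 in MZ-KO early, 0.996 to 2.19 in WT late and 4.37 to 7.74 in MZ-KO late embryos, with no overlap at either stage. Dynlrb1, a dynein light chain, was higher by 0.75 early and 1.82 late, a contrast of 1.07 (adjusted p = 0.00331, limma). Erich5 was the reverse case, where the larger difference came first. It stood at 0.534 to 1.42 FPKM in WT early and 4.02 to 8.79 FPKM in MZ-KO early embryos, and at most 0.162 and 1.22 FPKM in the late groups. The contrast of Erich5 was -1.42 (SE 0.22, adjusted p = 5.9e-05, limma), and with a pseudocount of 0.1 it was not called (-0.72, adjusted p = 0.327).

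Genes of the mitochondrial respiratory chain were called higher more often than lower. Complex I, which takes electrons from NADH, had 16 higher and 0 lower of 39 tested genes. Its median contrast was 0.62 where the median of all genes tested was 0.05. Complex I had 41% of its tested genes called, where all genes tested had 20.4%, with 12% higher and 8.4% lower. In the median of its tested members, each WT late embryo was at 1.58 to 2.01 and each MZ-KO late embryo at 2.26 to 3 on the log2(FPKM + 1) scale, without overlap. Early the same medians were 0.93 to 1.23 in WT and 1.19 to 1.62 in MZ-KO. All list medians per embryo use the FPKM as deposited. The factors by which median-ratio scaling divides a library were 0.89 to 1.18 in WT late and 1.18 to 1.32 in MZ-KO late embryos. Dividing FPKM by these factors put MZ-KO late library 5 (2.26, factor 1.31) below WT late library 3 (2.01, factor 0.89) in complex I. The late groups therefore overlapped in complex I under that scaling. MZ-KO late library 5 also fell below a WT late embryo in complexes II to V, the mitochondrial ribosome and the proteasome. Other list medians were not tested under that scaling. Among the 29 complex I subunit genes 12 were higher, and among 10 assembly factor genes 4. Beside Ndufb10, the assembly factors Ndufaf3 (2.04, SE 0.32, adjusted p = 8.0e-05, limma) and Ndufaf4 (1.29, SE 0.17, adjusted p = 1.3e-05) were higher. Ndufaf4 fell from early to late in both genotypes, from 41.1 to 60.7 FPKM in WT early embryos to 4.59 to 5.91 FPKM in WT late ones. In MZ-KO it went from 41.7 to 50.9 FPKM early to 11.7 to 18.7 FPKM late.

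Complexes II to V together had 18 higher and 1 lower of 45 tested genes, with a median of 0.6. Of these genes 42.2% were called, against 20.4% of all genes tested, 12% higher and 8.4% lower. Complex III with cytochrome c had 6 higher of 10, ATP synthase 8 higher and 1 lower of 16, complex IV 4 higher of 15 and complex II 0 of 4. Cox8c, a complex IV subunit, was at most 1.04 FPKM in every early and WT late embryo and at 4.75 to 14.4 FPKM in MZ-KO late embryos. Its contrast was 2.71 (SE 0.29, adjusted p = 9.0e-07, limma), a description because Cox8c passed the filter only through the late MZ-KO group. Atp5j2, an ATP synthase subunit, was at 2.4 to 5.12 FPKM in WT late and 8.98 to 18.5 FPKM in MZ-KO late embryos (contrast 1.81, adjusted p = 1.4e-05, limma). The complex III subunit Uqcrh (1.79) and the ATP synthase subunit Atp5d (2) were also higher. The single lower member was Atp5f1 (-0.71, adjusted p = 0.02, limma), another subunit of ATP synthase, whose span overlaps Gm42890 and Wdr77.

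Mitochondrial ribosomal proteins, which make the ribosomes of the organelle, had the largest share called of the lists with 10 or more tested members. Of 69 tested genes 34 were higher and 1 was lower, or 50.7% against 20.4% of all genes tested, with a median of 0.76. The small subunit had 15 higher of 23 and the large subunit 19 higher and 1 lower of 46. Per embryo the list median was 1.77 to 2.11 in WT early, 1.71 to 2.03 in MZ-KO early, 1.78 to 2.36 in WT late and 2.57 to 3.45 in MZ-KO late embryos. On the FPKM as deposited, only the late MZ-KO group lay apart. Mrpl36 was at 0 to 1.53 FPKM in WT late and 7.08 to 14.4 FPKM in MZ-KO late embryos. Its contrast was 2.77 (SE 0.27, adjusted p = 3.2e-07, limma), and its span overlaps Ndufs6 of complex I, so reads of the pair may not be told apart. Mrpl30 (1.76, adjusted p = 5.8e-06, limma), Mrps18c (2.21, adjusted p = 2.9e-05) and Mrps14 (1.05, adjusted p = 0.00196), whose start window is shown above, were higher. Mrpl4 (-0.87, adjusted p = 0.0113, limma) was the lower one, with an early difference of 0.65.

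Mitochondrial protein import had 11 higher and 2 lower of 28 tested genes, or 46.4% against 20.4% of all genes, with a median of 0.42. Timm13, a chaperone of the intermembrane space, was at 12.4 to 48.7 FPKM in WT late and 79.9 to 138 FPKM in MZ-KO late embryos. The contrast of Timm13 was 2.43 (SE 0.33, adjusted p = 1.6e-05, limma). Grpel1, the nucleotide exchange factor of the matrix Hsp70, was higher by 1.57. Tomm34 (-1.21) and Timm23 (-0.44), the channel of the inner membrane translocase, were lower. Under median-ratio scaling the mitochondrial lists also had more higher than lower calls, with 10 and 1 in complex I, 14 and 2 in complexes II to V, 24 and 3 in the mitochondrial ribosome and 7 and 2 in import. Without WT early library 3 and WT late library 3 the higher and lower calls were 21 and 0, 21 and 1, 37 and 1, and 11 and 2 in the same order. Of the higher genes, 1, 4, 4 and 4 in the same order passed the filter only through the late MZ-KO group.

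**Figure D4:**
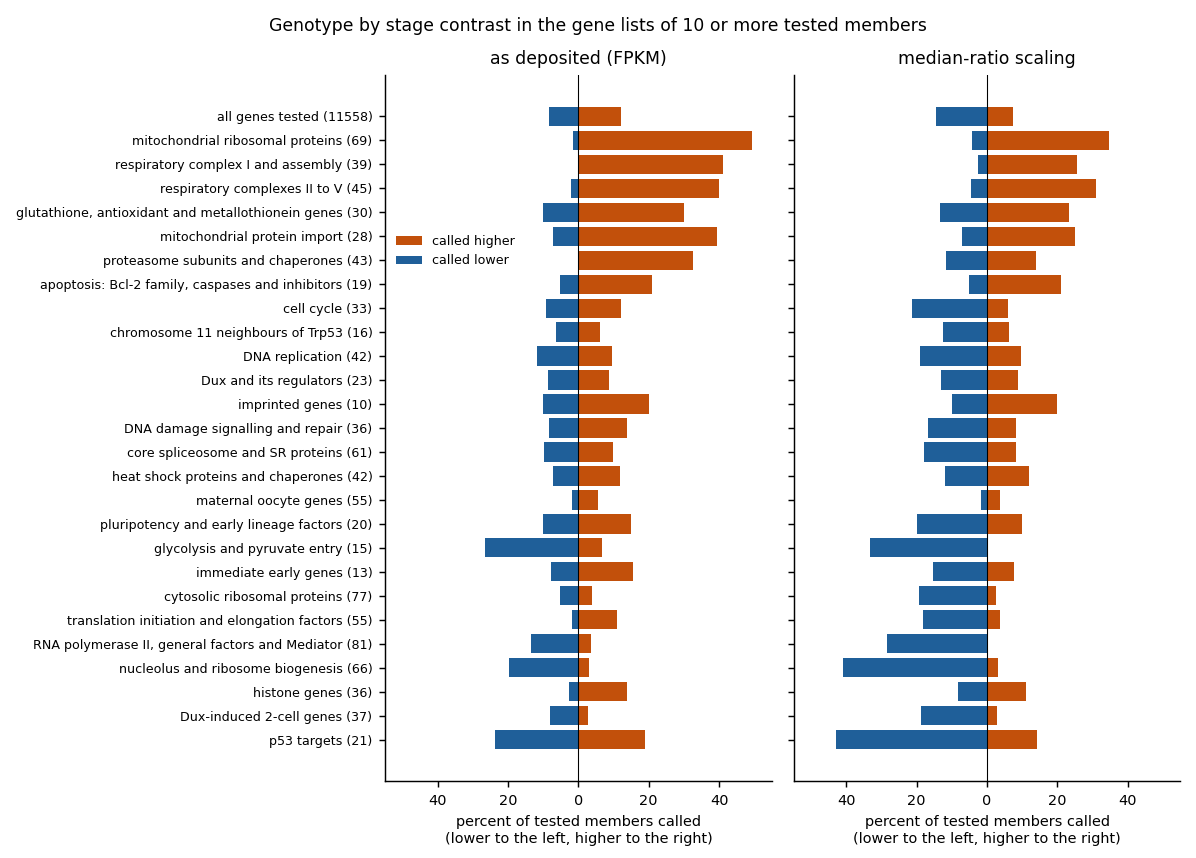
Bars give the percent of each list's tested members called higher (right) and lower (left) in the genotype by stage contrast, for lists of 10 or more tested members, ordered by their median contrast, with the number tested in brackets; the left panel uses the FPKM as deposited and the right panel median-ratio scaling. The mitochondrial lists extend mainly to the right in both panels, the nucleolus list and the RNA polymerase II list mainly to the left in both, and the proteasome list has 14 higher and 0 lower calls on the left and 6 and 5 on the right.

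The proteasome, which degrades ubiquitin-tagged proteins, had a share called of 32.6%, where it was 20.4% of all genes tested and 12% were higher. Of 43 tested members, 14 were higher and 0 lower, with a median of 0.32. That direction depended on the scaling, since under median-ratio scaling 6 were higher and 5 lower. Higher members came from the 20S core (5 of 14), the 19S cap (5 of 21) and the activators, inhibitor and chaperones (4 of 8). Of the 14 higher members, 2 passed the filter only through the late MZ-KO group. After Psmb10 the largest contrasts were those of Psme1 (1.61, adjusted p = 0.00381, limma), an activator subunit, and Psmb6 (1.51, adjusted p = 0.00212), a catalytic subunit. Psmg1, an assembly chaperone, was at 0.374 to 1.38 FPKM in WT late and 2.17 to 4.02 FPKM in MZ-KO late embryos, a contrast of 1.05 (adjusted p = 0.0016, limma). Psmb5, the catalytic subunit that Psmb8 replaces in the immunoproteasome, had a contrast of -0.56 that did not pass the test (adjusted p = 0.207, limma).

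Nucleolar and ribosome biogenesis genes had 2 higher and 13 lower of 66 tested and a median of -0.29. The share called, 22.7%, was near the 20.4% of all genes tested. Under median-ratio scaling 2 were higher and 27 lower. The per-embryo list median was 3.36 to 3.82 in WT late and 2.94 to 3.47 in MZ-KO late embryos, with overlap, and 1.06 to 1.36 in all early embryos. Imp3, of the small subunit processome, was at 298 to 398 FPKM in WT late and 197 to 247 FPKM in MZ-KO late embryos, without overlap. Its contrast was -0.89 (SE 0.16, adjusted p = 3.2e-04, limma). Utp18, of the same particle, had a contrast of -1.14 (SE 0.19, adjusted p = 1.8e-04, limma). Npm1, Fbl and Nat10 were among the other lower members, and Wdr12 (0.99) and Tsr2 (1.41) were the higher ones. The cytosolic ribosomal protein genes had 3 higher and 4 lower of 77, a median of -0.09, and under median-ratio scaling 2 higher and 15 lower. Their share called was 9.09%, below that of all genes tested.

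RNA polymerase II, its general factors and Mediator had 3 higher and 11 lower of 81 tested genes, a median of -0.18, and 0 higher and 23 lower under median-ratio scaling. The share called was 17.3%, below the 20.4% of all genes tested. Med21, a Mediator subunit, was at 14.7 to 31.7 FPKM in WT late and 3.98 to 10.1 FPKM in MZ-KO late embryos, with no overlap (contrast -1.82, SE 0.27, adjusted p = 4.9e-05, limma). Polr2a, the largest polymerase subunit, was at 1.83 to 4.27 FPKM in WT late and 0.206 to 1.73 FPKM in MZ-KO late embryos. Its contrast was -0.93 (adjusted p = 0.00655, limma), a description because Polr2a passed the filter only through the WT late group. The subunit Polr2d was also lower (-0.94), with an early difference of 0.6, and Polr2h was higher (1.04). The call of Polr2h was lost under median-ratio scaling (0.75, adjusted p = 0.0501, limma).

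**Figure D5:**
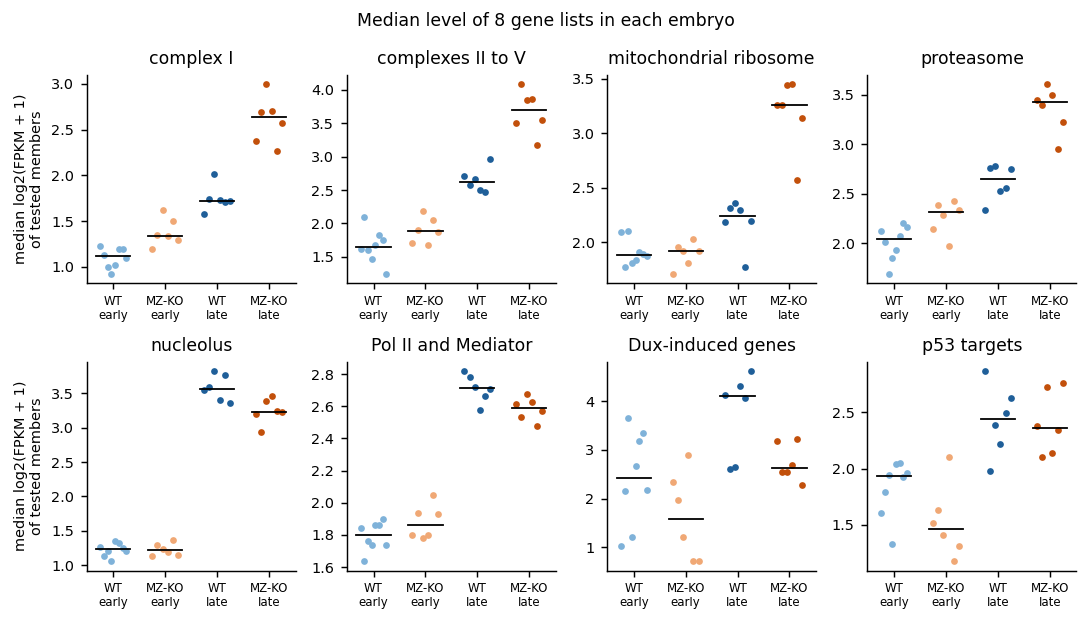
Each point is the median log2(FPKM + 1) over the tested members of a gene list in 1 embryo, and each bar is the median of its group. Values are the FPKM as deposited. Under median-ratio scaling MZ-KO late library 5 falls below a WT late embryo in the respiratory, mitochondrial ribosome and proteasome lists. In complex I, complexes II to V, the mitochondrial ribosome and the proteasome, all 6 late MZ-KO embryos lie above all 6 late WT embryos. For the Dux-induced genes, 2 of the 6 late WT embryos have a median within the late MZ-KO range.

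Targets of p53 were called in both directions. Of 21 tested, 4 were higher (Cdkn1a, Ccng1, Mdm2 and Rrm2b) and 5 lower (Aen, Ckap2, Gadd45a, Sp110 and Tigar), with a median of -0.49. The share called was 42.9%, where it was 20.4% of all genes tested. Under median-ratio scaling 3 were higher and 9 lower, and without WT early library 3 and WT late library 3, 3 were higher and 8 lower. Mdm2 was at 2.09 to 6.27 FPKM in WT late and 8.52 to 10.5 FPKM in MZ-KO late embryos, apart from each other, and early at 2.52 to 5.56 and 3.06 to 6.28 FPKM. Its contrast of 0.69 (SE 0.25, adjusted p = 0.0475, limma) was close to the threshold and was lost under 6 alternatives, among them median-ratio scaling (0.45, adjusted p = 0.187), and in 19 of the 26 fits that left out 1 embryo. Ccng1, which encodes cyclin G1, was higher by 1.44 (adjusted p = 0.00395, limma). Rrm2b, a ribonucleotide reductase subunit, was higher by 0.69 (adjusted p = 0.0112, limma). The lower Tigar, a fructose bisphosphatase that limits glycolysis, was at 16.2 to 23.4 FPKM in WT late and 5.97 to 10.7 FPKM in MZ-KO late embryos (contrast -1.11, adjusted p = 1.6e-04, limma). Gadd45a, a growth arrest and DNA damage gene, was lower by a contrast of -1.32 (adjusted p = 0.0117, limma). No member was called in the early comparison, and Bax, the apoptosis effector, had a contrast of -0.01 (SE 0.23).

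Of 37 tested genes induced by Dux, 1 was higher (B020031M17Rik) and 3 lower (Pramel7, Sp110 and Tdpoz3), with a median of -0.38. The share called was 10.8%, where it was 20.4% of all genes tested. With a pseudocount of 0.1 the call of B020031M17Rik was lost (1.13, adjusted p = 0.393, limma). In the late comparison alone 2 were higher and 16 lower, with a median of -1.1, and in the early one 2 were higher and 0 lower, with a median of -0.61. Zscan4d illustrates the spread, with a late difference of -1.71, an early one of -0.66 and a contrast of -1.05 with a standard error of 0.77 (adjusted p = 0.359, limma). The list median in single embryos was 2.61 to 4.61 in WT late and 2.28 to 3.23 in MZ-KO late embryos, with WT late libraries 2 and 3 lowest in their group. Without WT early library 3 and WT late library 3, 1 was higher and 7 lower, and under median-ratio scaling also 1 and 7. Duxf3 itself was at 1.15 to 5.2 FPKM in WT early and 0.764 to 8.81 FPKM in MZ-KO early embryos and at most 0.338 FPKM late. Its contrast of -0.34 did not pass the test (SE 0.45, adjusted p = 0.639, limma). Of 23 tested genes in the list of Dux and its regulators, 2 were higher (Trp53 and Max, 0.78) and 2 lower (Pias4, -1.04, and the corepressor Trim28, -0.91). The share called in that list was 17.4%. The call of Pias4 was lost in 12 of the 26 fits that left out 1 embryo. Members of these multicopy families can share reads, so values of single Zscan4, Tdpoz, Usp17l and Pramel genes are uncertain.

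In the cell cycle list, 4 of 33 genes were higher and 3 lower, and in DNA replication 4 of 42 were higher and 5 lower. The shares called, 21.2% and 21.4%, were near the 20.4% of all genes tested. Under median-ratio scaling the higher and lower calls were 2 and 7 in the cell cycle list and 4 and 8 in DNA replication. Cdc20, the activator of the anaphase-promoting complex, (overlapping Elovl1), was at 274 to 427 FPKM in WT late and 53.3 to 193 FPKM in MZ-KO late embryos, a contrast of -1.61 (adjusted p = 0.00358, limma). Cdk4, a G1 kinase, went the other way, at 7.28 to 16.5 FPKM in WT late and 24.1 to 36.3 FPKM in MZ-KO late embryos (contrast 1.47, adjusted p = 0.00117, limma). Pcna, the sliding clamp, was at 13.3 to 20.3 FPKM in WT late and 6.02 to 8.06 FPKM in MZ-KO late embryos, without overlap. The contrast of Pcna was -1.35 (SE 0.2, adjusted p = 5.7e-05, limma). The replication licensing factor Cdt1 (-1.61) and the origin recognition subunit Orc1 (-1.28) were lower, and Orc2 (1.15) and the clamp loader subunit Rfc4 (1.45) higher. Rfc4 overlaps Eif4a2, which was lower (-0.91). DNA damage genes had 5 higher, with the kinase Atm at 0.64, and 3 lower of 36, which became 3 higher and 6 lower under median-ratio scaling, and the share called was 22.2%.

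Smaller groups gave the following counts. Glutathione and antioxidant genes had 9 higher and 3 lower of 30, with Prdx3 (1.56), a mitochondrial peroxiredoxin, among the higher and Gstm5 (-2.13) and Sod2 (-0.58) among the lower. Glycolysis and pyruvate entry had 1 higher and 4 lower of 15, and Slc16a1, a lactate and pyruvate transporter, had a contrast of -1.35 (adjusted p = 1.4e-04, limma). The pyruvate dehydrogenase subunit Pdhb had a contrast of -1.47 (adjusted p = 6.0e-04, limma). Apoptosis genes had 4 higher and 1 lower of 19, with Casp6 (1.73) and Cycs (1.43), cytochrome c, higher and Diablo (-0.55) lower. Heat shock genes had 5 higher and 3 lower of 42, where Fkbp11 (2.92) and Dnajb3 (2.82) were higher and Hspa1b (-1.68) lower beside Hspa8. Under median-ratio scaling the heat shock list had 5 higher and 5 lower. The spliceosome list had 6 higher and 6 lower of 61, which became 5 higher and 11 lower under median-ratio scaling. Translation factors had 6 higher and 1 lower of 55, which became 2 higher and 10 lower under median-ratio scaling. Histone genes had 5 higher and 1 lower of 36 with a median of -0.35, immediate early genes 2 and 1 of 13, and imprinted genes 2 and 1 of 10. Under median-ratio scaling the immediate early genes had 1 higher and 2 lower. Glutathione and antioxidant genes then had 7 higher and 4 lower, histone genes 4 and 3, and glycolysis and pyruvate entry 0 and 5. The counts of apoptosis and imprinted genes did not change. Of all genes tested 20.4% were called. The share was 40% in glutathione and antioxidant, 33.3% in glycolysis and pyruvate, 30% in imprinted and 26.3% in apoptosis genes. It was 23.1% in immediate early, 19.7% in spliceosome, 19% in heat shock, 16.7% in histone and 12.7% in translation factor genes.

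Of 20 pluripotency and early lineage factors, 3 were higher and 2 lower, and under median-ratio scaling 2 were higher and 4 lower. The share called was 25%, where it was 20.4% of all genes tested. Hand1, a trophoblast transcription factor, was at 0.056 to 5.15 FPKM in WT late and 3.29 to 18.1 FPKM in MZ-KO late embryos. Its contrast was 2.18 (adjusted p = 9.5e-04, limma), a description because Hand1 passed the filter only through the late MZ-KO group. Nr5a2, a nuclear receptor active at genome activation, was at 3.22 to 4.7 FPKM in WT late and 1.54 to 2.43 FPKM in MZ-KO late embryos (contrast -0.7, adjusted p = 1.5e-04, limma). Klf4 (0.88) and Zfp42 (0.87) were higher and Obox3 (-0.97) lower, and the call of Klf4 was lost under median-ratio scaling (0.63, adjusted p = 0.11, limma). With a pseudocount of 0.1 the calls of Nr5a2 (-0.67, adjusted p = 0.0812, limma), Zfp42 (1.41, adjusted p = 0.0754) and Klf4 (1.01, adjusted p = 0.143) were lost. Of 55 maternal genes, 3 were higher and 1 lower, or 7.27%. Dnmt3l, a cofactor of DNA methylation in the oocyte, was at 3.46 to 5.98 FPKM in all early embryos, at 0.207 to 1.1 FPKM in WT late and at 1.42 to 2.84 FPKM in MZ-KO late embryos. Its contrast was 1.04 (adjusted p = 3.7e-04, limma). Cnot6l, a deadenylase that acts on maternal RNA, was higher by 0.56, and none of the 8 oocyte markers was called. Of 8 markers of the 2-cell embryo none was called either, and of 2 tested trophectoderm and inner cell mass markers Krt18 was higher (1.58, adjusted p = 0.0101, limma). The median change from early to late over the maternal list was -2.52 in WT and -2.69 in MZ-KO.

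The alpha globin genes moved with genotype at the late stage. Hba-a2 was at 7.05 to 12.4 FPKM (median 8.18) in WT late and 16.7 to 79.3 FPKM (median 38.8) in MZ-KO late embryos, with a contrast of 2.54 (SE 0.51, adjusted p = 9.5e-04, limma). Hba-a1 had a contrast of 2.34 (adjusted p = 0.006, limma), and the near-identical pair can share reads. The summed level of the 10 blood and immune markers was 14.8 to 23.7 FPKM in WT late and 31.7 to 157 FPKM in MZ-KO late embryos. The beta globin gene Hbb-bt was listed at 0 in all embryos, Hbb-bs was at most 0.056 FPKM and the leukocyte gene Ptprc at most 0.031 FPKM. The part of other cells in these values was not tested.

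By annotated class, protein-coding genes held most of the calls, with 1103 higher and 618 lower of 7410, or 23.2%. Processed pseudogenes had 106 higher and 144 lower of 1588, or 15.7%, and lincRNA genes 30 higher and 44 lower of 485, or 15.3%. The 160 tested small nucleolar RNA genes had 2 higher and 12 lower, with a median of -0.56. Their share called was 8.75%, below the 20.4% of all genes tested. Most such genes lie in introns of other genes and the values may take in all reads over a span, so their level can hold reads of the host. In 5 equal classes of transcript length the share called ran from 16% to 23.4%, and on single chromosomes from 16.1% to 24.6%.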

How the data were processed

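Single embryos were measured by RNA-seq. The deposited values are FPKM per gene made by the authors; the submitters' processing notes name TopHat2, DESeq, DESeq2 and build mm10, without versions or roles. Low values of short genes were whole multiples of 1 read over the gene span, within 0.1 read, so the span is the length behind the FPKM. Which reads were counted was not tested, and FPKM here may take in introns and overlapping genes. Columns name a group but no replicate, so libraries were numbered within a group in column order. Genes reaching FPKM 1 in 6 or more of 26 embryos were fitted on log2(FPKM + 1) with limma 3.58.1 (intensity trend, robust) in R 4.3.3, as 4 group means, with calls below a 0.05 Benjamini-Hochberg adjusted p over all 11558 genes. This scale understates the change of low genes. Columns for the 6 egg libraries entered 1 alternative only. Overlaps come from GENCODE M21. The fit was also run on simulated data with independent noise for each gene. Such data hold no shift shared by a whole library, so they cannot show how the fit handles one.

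The genes and the 32 gene lists were chosen with earlier results of these data known. The 112 genes picked by rule are called protein-coding genes with a mean FPKM of 5 or more in a group: in each direction the 8 with the largest contrast called late only, 4 called early only, 4 with opposite signs and 2 with the same sign. To these were added Trp53, Mdm2, Cdkn1a, Duxf3 and, in each list, the 2 called members with the smallest adjusted p in each direction, or the smallest where none was called. Of the 112, 50 overlap another annotated gene. Other genes named with values, such as Ndufaf3, Uqcrh, Atp5d, Mrps18c, Mrps14, Psme1, Psmb6, Psmb5, Rrm2b, Gadd45a, Bax and Zscan4d, were chosen after their values were seen. Alternatives changed the pseudocount, the filter, the scaling, transcript length, the weights, the libraries and the moderation. 1 of the genes that the rule picks is not reported here.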

Additional observations from a re-analysis of the deposited data

Results flagged for a closer look

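Among 386 pairs of a gene and a group, 28 had 1 embryo far from the rest of its group. The flag rule has a nominal chance rate of about 1 in 20. Whether that rate holds for these values was not tested. WT late library 3 stood apart in 6 genes. Elobl was at 73.8 FPKM against 106 to 118 FPKM in the other embryos. H2afx was at 1.92 FPKM against 6.46 to 11.4 FPKM in the other embryos. Timm23 was at 4.18 FPKM against 5.24 to 5.92 FPKM in the other embryos. Cdc20 was at 427 FPKM against 274 to 312 FPKM in the other embryos. Casp6 was at 1.25 FPKM against 0.029 to 0.289 FPKM in the other embryos. Gstm5 was at 16.5 FPKM against 35.2 to 52.8 FPKM in the other embryos. WT early library 3 stood apart in 5 genes. Cdkn1a was at 14 FPKM against 1.52 to 4.54 FPKM in the other embryos. Eif1b was at 77.9 FPKM against 123 to 155 FPKM in the other embryos. Eif4a2 was at 6.78 FPKM against 13.6 to 20.1 FPKM in the other embryos. Hus1 was at 4.09 FPKM against 7.56 to 8.64 FPKM in the other embryos. Parp2 was at 1.13 FPKM against 0.33 to 0.47 FPKM in the other embryos. MZ-KO late library 5 stood apart in 4 genes. Nt5c was at 4.32 FPKM against 17.6 to 32.9 FPKM in the other embryos. Lsm8 was at 16.3 FPKM against 22.9 to 24.5 FPKM in the other embryos. Nr5a2 was at 2.43 FPKM against 1.54 to 1.75 FPKM in the other embryos. Mpc2 was at 7.02 FPKM against 11.2 to 13.7 FPKM in the other embryos. In MZ-KO late library 2, Arl4d was at 1.96 FPKM against 0 to 0.421 FPKM in the other embryos and Pcna was at 6.02 FPKM against 7.28 to 8.06 FPKM in the other embryos. In WT late library 1, Sdf2 was at 7.7 FPKM against 11.4 to 13.5 FPKM in the other embryos and Zfp36 was at 36.8 FPKM against 10.8 to 15.4 FPKM in the other embryos. In WT late library 4, Mdm2 was at 2.09 FPKM against 4.33 to 6.27 FPKM in the other embryos and Orc2 was at 0.917 FPKM against 1.75 to 2.15 FPKM in the other embryos. In MZ-KO early library 1, Hspa1b was at 1.47 FPKM against 0.279 to 0.588 FPKM in the other embryos. In MZ-KO late library 1, Gsto1 was at 0.393 FPKM against 2.5 to 5.04 FPKM in the other embryos. In MZ-KO late library 6, Tsr2 was at 11.8 FPKM against 19.1 to 25.1 FPKM in the other embryos. In WT early library 1, B020031M17Rik was at 1.52 FPKM against 0 to 0.382 FPKM in the other embryos. In WT early library 8, Sp110 was at 3.37 FPKM against 5.44 to 7.4 FPKM in the other embryos. In WT late library 2, Eif4a2 was at 8.99 FPKM against 18.1 to 25.7 FPKM in the other embryos. In WT late library 6, Ier3 was at 7.41 FPKM against 0 to 0.647 FPKM in the other embryos.

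The genotype difference itself differed between the stages, by the test of that difference, in 2363 genes. These include 108 of the 112 genes picked by rule, and those reported are given here with their contrast on the log2(FPKM + 1) scale. Genes with a more positive late difference were Ier3 (4.06), Nt5c (3.33), Psmb10 (3.18), Ndufb10 (3.11), Phlda2 (3.11), Rnf138rt1 (3.08), Chrna10 (3.03), Cdkn1a (3.02), Trp53 (1.88). Higher too were Gcsh (1.23), Zfp518a (0.8), Wdr61 (1.08), Dynlrb1 (1.07), Mdm2 (0.69), Ccng1 (1.44), B020031M17Rik (1.43), Max (0.78), Dnmt3l (1.04). Also higher were Cnot6l (0.56), Ndufaf4 (1.29), Cox8c (2.71), Atp5j2 (1.81), Mrpl36 (2.77), Mrpl30 (1.76), Rpl3l (1), Rpl22 (0.83), Psmg1 (1.05). Genes with a more positive late difference were Wdr12 (0.99), Tsr2 (1.41), Lsm8 (1.47), Bcas2 (1.68), Eif1b (1.92), Eif4ebp1 (1.74), Fkbp11 (2.92), Dnajb3 (2.82), Timm13 (2.43). Higher too were Grpel1 (1.57), Cdk4 (1.47), Rfc4 (1.45), Orc2 (1.15), Atm (0.64), Hus1 (1.06), Cycs (1.43), Casp6 (1.73), Klf4 (0.88). Also higher were Hand1 (2.18), Zfp42 (0.87), Impact (0.8), Cenpa (1.04), Hist1h4d (2.03), Prdx3 (1.56), Gsto1 (1.65), Mpc2 (0.67), Polr2h (1.04). Genes with a more positive late difference were Med28 (0.56), Tnfsf13 (1.42), Hba-a2 (2.54), Hba-a1 (2.34), Krt18 (1.58). Genes with a more negative late difference were Calhm3 (-3.58), Defb25 (-2.7), Rsrp1 (-2.66), Zswim3 (-2.55), Elobl (-2.53), Hspa8 (-2.4), Arl4d (-2.36), Pramel7 (-2.16), Crnkl1 (-3.12). Lower too were H2afx (-1.59), Fbxw15 (-1.54), Pcgf1 (-1.39), Pramef17 (-2.34), Rbm42 (-1.99), Sdf2 (-1.72), Erich5 (-1.42), Tigar (-1.11). Also lower were Sp110 (-1.21), Trim28 (-0.91), Pias4 (-1.04), Atp5f1 (-0.71), Mrpl4 (-0.87), Rpl37 (-0.95), Rpl37a (-0.89), Utp18 (-1.14), Imp3 (-0.89). Genes with a more negative late difference were Sf1 (-1.28), Eif4a2 (-0.91), Hspa1b (-1.68), Tomm34 (-1.21), Timm23 (-0.44), Cdt1 (-1.61), Cdc20 (-1.61), Pcna (-1.35), Orc1 (-1.28). Lower too were Parp2 (-0.59), Diablo (-0.55), Zfp36 (-1.6), Nr5a2 (-0.7), Obox3 (-0.97), Ube3a (-0.49), Gstm5 (-2.13), Sod2 (-0.58), Slc16a1 (-1.35). Also lower were Pdhb (-1.47), Med21 (-1.82), Polr2d (-0.94), Polr2a (-0.93).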

How the results depend on the processing

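With a minimum of FPKM 5, which left 5062 genes, 1194 genes were called in the contrast (644 higher, 550 lower) and 2069 in the late comparison. With weights per group the early comparison called 625 genes and the late comparison 3230. Leaving out 1 embryo at a time gave 2089 to 2555 genes in the contrast, 3749 to 4194 late, 106 to 289 early, and a Trp53 contrast of 1.63 to 2.11. With a pseudocount of 0.1 the contrast called 1871 genes (1243 higher, 628 lower), and with no filter 2398 (1564 higher, 834 lower). Prm1, which was not called, changed sign with a pseudocount of 0.1 (0.26, adjusted p = 0.707, limma); the cause was not tested. Of the 112 genes picked by rule, 13 lost their call with a pseudocount of 0.1, 13 with no filter, 8 under median-ratio scaling, 4 with the length trend taken out, 2 with weights per group and 4 without WT early library 3 and WT late library 3. Prm1 and Tcstv3 (-1.64, adjusted p = 0.0476, limma) gained one under median-ratio scaling. Among genes given values in the text, leaving out 1 embryo lost the call of Mdm2 in 19 of 26 fits, of Diablo, Eif4a2 and Pias4 in 12, of Sod2 in 10, of Arl4d in 9 and of Parp2 in 8. It was lost in 6 fits for Med28 and Zfp36, in 5 for Hspa1b, in 4 for Klf4 and in 2 for Mpc2. Prm1 gained a call in 2 fits and Tcstv3 in 1. No paired analysis was possible because the columns carry no replicate numbers. Low genes are limited by depth, since a gene below about 1 FPKM moves little on the log2(FPKM + 1) scale.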
